A study of Mus musculus with 3 samples.

Results

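Of 1889 mouse spleen B cell barcodes that could be tied to 1 mouse, 773 (40.9%) held more transcripts of the lambda light chain constant genes than of the kappa constant gene. A barcode entered when the largest of its 6 hashtag counts was at least 20 and at least 3 times the next, and when it held at least 1 unique molecular identifier (UMI, a counted RNA molecule) of Cd79a, which encodes a signalling chain of the B cell receptor. It was a member when its summed UMIs of Iglc1, Iglc2 and Iglc3 exceeded its UMIs of Igkc, so the members were chosen by these 4 measured values. The remaining 1116 barcodes, called the others here, include 141 with equal counts, of which 2 had none of either. The members' label, lambda light chain B cells, goes against most of the V gene transcripts in these barcodes, as shown before the comparisons, so the members are named here by the rule.

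The study sequenced B cells from the spleens of 3 mice with LDHA and 3 LDHA-deficient mice to ask what lactate dehydrogenase A does in the activation and proliferation of germinal centre B cells. Cells were marked by mouse with oligonucleotide hashtags, sorted as viable B cells and on GL7, which marks germinal centre cells, and captured together for 5′ single-cell RNA, hashtag and B cell receptor libraries. The labels name the hashtags WT and KO, and the sources used here give no strain, age, immunisation, or promoter that would limit the deletion to B cells. A haematopoietic stem and progenitor cell label stands on 2 of the 3 libraries, while the protocol describes sorted B cells. The hashtag library held 2831 of the 2836 cell barcodes of the gene library, 1889 of the 1905 barcodes with a single hashtag had a Cd79a UMI, and the median depth per mouse was 3767 to 4465 UMIs.

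A mouse B cell makes its light chain from the kappa locus or, in a minority of cells, from the lambda locus, and normally shows only 1 of them on its surface. The lambda locus is small: Iglv1 joins to the Iglj3-Iglc3 or Iglj1-Iglc1 clusters downstream of it, and Iglv2 mostly to Iglj2-Iglc2. A productive light chain transcript therefore carries a V gene, a J gene and a constant gene of the same locus, and the V gene was not used to choose the members.

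Iglc2 and Iglc3, which the rule counts, are close copies of each other, which bears on what their counts can tell apart. The following 120-base stretches start the coding exon of each, from the GENCODE vM21 transcripts on GRCm38 (mm10), minus strand, with capitals at bases that differ from Iglc2 in Iglc1 and Iglc3, and from Iglv1 in Iglv2.
Iglc2, chr16:19198733-19198852: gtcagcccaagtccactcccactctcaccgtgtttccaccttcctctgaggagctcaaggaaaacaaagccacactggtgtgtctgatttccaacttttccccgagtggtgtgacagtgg
Iglc3, chr16:19065562-19065681: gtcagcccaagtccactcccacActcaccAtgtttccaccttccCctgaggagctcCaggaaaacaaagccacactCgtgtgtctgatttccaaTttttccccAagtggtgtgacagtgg
Iglc1, chr16:19061952-19062071: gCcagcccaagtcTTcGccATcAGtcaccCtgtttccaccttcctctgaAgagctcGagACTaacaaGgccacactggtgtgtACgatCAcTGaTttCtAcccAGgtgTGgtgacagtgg
Iglv1, chr16:19085202-19085321: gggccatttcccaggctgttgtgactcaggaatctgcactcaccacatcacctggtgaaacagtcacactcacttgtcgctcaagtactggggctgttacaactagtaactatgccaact
Iglv2, chr16:19260586-19260705: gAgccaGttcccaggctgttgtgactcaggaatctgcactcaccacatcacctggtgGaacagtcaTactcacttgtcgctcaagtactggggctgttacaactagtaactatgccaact
Over the aligned coding exon, Iglc2 and Iglc3 had 303 of 314 bases in common (96.5%), while Iglc1 and Iglc2 had 234 of 313 (74.8%). Iglv1 and Iglv2 were identical at 97.0% of aligned bases, and Iglv1 and Iglv3 at 55.1%. Counts of Iglc2 against Iglc3, and of Iglv1 against Iglv2, are therefore uncertain. Igkc lies on another chromosome, at chr6:70726435-70726966 on the plus strand.

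The members had a median of 14 summed Iglc UMIs and 7 Igkc UMIs, and the others 6 and 10. Summed over the barcodes of a mouse, the lambda constant genes made up 43.5, 30.9 and 32.0 of every 10000 UMIs in members of LDHA-sufficient mice 1, 2 and 3, and 42.4, 30.1 and 29.4 in LDHA-deficient mice 1, 2 and 3. In the others the same levels were 12.8, 12.5 and 16.5, then 17.3, 17.2 and 16.6. These levels were fixed in direction by the rule and are given as a description. Iglc4, which the rule leaves out, was at no more than 0.0427 of every 10000 UMIs in members or others of any mouse. The threshold ran through the densest part of the distribution: 204 members (26.4%) exceeded it by no more than 2 UMIs, and 409 others (36.6%) lay no more than 2 UMIs below it or on it. A lambda sum 1 UMI above Igkc was found in 107 barcodes, and 1 UMI below it in 146. A 3-fold excess of either locus was held by 163 members (21.1%) and 219 others (19.6%).

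The V genes did not follow the constant genes in most members. Igkv UMIs summed over all kappa V genes exceeded the summed UMIs of Iglv1, Iglv2 and Iglv3 in 591 members (76.5%), and the lambda V genes were ahead in 172 (22.3%). Among the others, the lambda V genes were ahead in 28 (2.51%). Barcodes were also sorted by V gene, a rule added after these counts were seen: lambda V barcodes held at least 10 Iglv UMIs and at least 3 times as many Iglv as Igkv UMIs, kappa V barcodes the reverse, and the rest were left undetermined. By that rule 99 members (12.8%) were lambda V, 451 (58.3%) kappa V and 223 (28.8%) undetermined. Only 7 of the others were lambda V and 813 were kappa V, so 99 of the 106 lambda V barcodes were members.

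**Figure D1:**
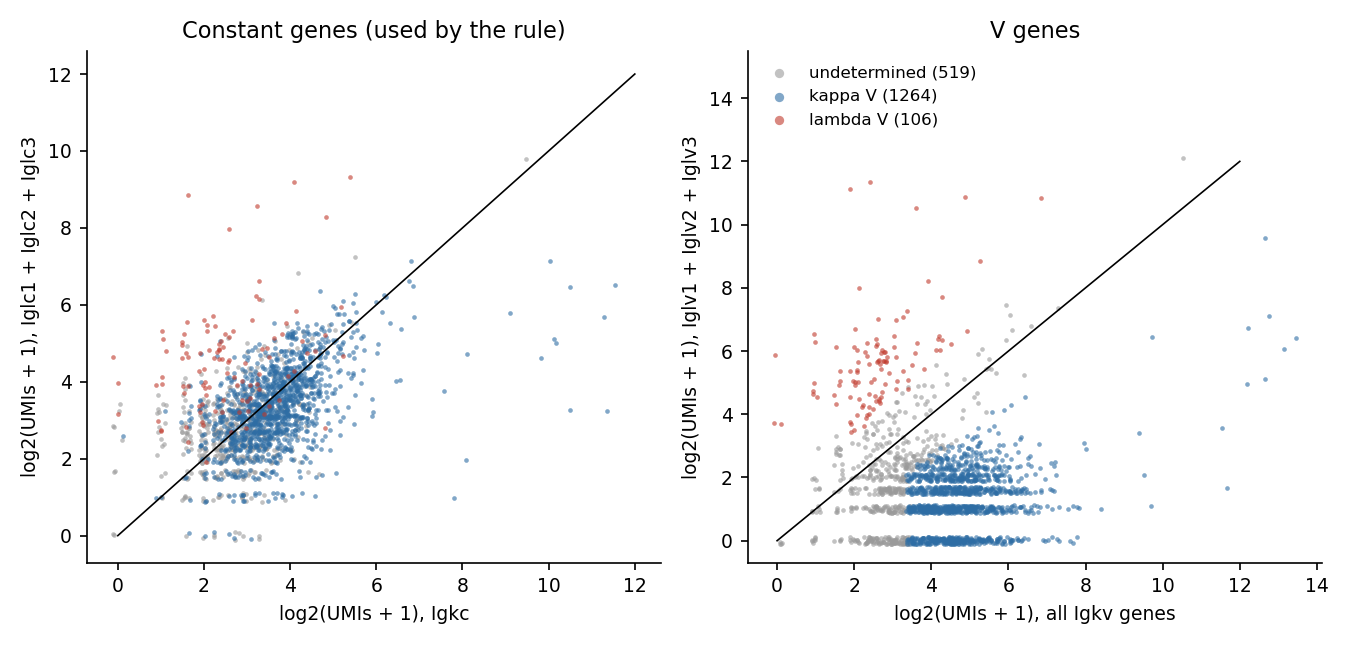
Light chain UMIs of the 1889 B barcodes on log2(UMIs + 1) axes, with a small random shift to separate points; left, the lambda constant genes against Igkc; right, the lambda V genes against the kappa V genes; colours give the V gene sort and the line marks equality. The 106 lambda V barcodes stand apart from the kappa V barcodes on the right, where the sort defines them, while on the left the 1264 kappa V barcodes lie on both sides of the line.

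The kappa V members had constant gene counts for both loci. Their medians were 16 summed Iglc and 10 Igkc UMIs, with 2 Iglv and 25 Igkv UMIs, against 24 Iglc, 4 Igkc, 47 Iglv and 5 Igkv UMIs in lambda V members. Iglc2 and Iglc3, at a median of 6 UMIs each, made up most of the lambda constant counts of kappa V members, whose median Iglc1 count was 2. Across all kappa V barcodes in order of total UMIs, the median count of Iglc2 was 2 in the lowest group of 422, 4 in the middle group of 421 and 6 in the highest group of 421. Over the same groups Igkc went from 8 to 11 to 18, while Iglv1 stayed at 1.

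Barcodes with fewer signs of being B cells also held light chain UMIs. Among the 16 barcodes with a single hashtag and no Cd79a UMI, 68.8% held an Iglc2 UMI and 100% an Igkc UMI, at medians of 1 and 4 UMIs and a median depth of 2656 UMIs. Of the 68 barcodes of a myeloid-like cluster, all with a Cd79a UMI and 6 of them lambda V and 15 kappa V, 79.4% held an Iglc2 UMI and 95.6% an Igkc UMI, at medians of 1.5 and 5 UMIs and a median depth of 3652 UMIs. Among kappa V barcodes 93.0% held an Iglc2 UMI at a median depth of 4303. Both the level of Iglc2 and the share of barcodes with it were higher in kappa V barcodes than in both of these groups, and the share of free RNA in the constant gene counts was not tested. The reference transcript of Iglc2 spans Iglj2 without a V gene, at chr16:19198396-19200351.

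Most lambda V barcodes were led by Iglv1. Iglv1 was the leading V gene in 79 of the 106 (74.5%), Iglv2 in 22 (20.8%) and Iglv3 in 5 (4.72%). The largest constant count was Iglc1 in 46 of the 79 Iglv1 barcodes, Iglc2 in 22 and Iglc3 in 11. It was Iglc2 in 18 of the 22 Iglv2 barcodes and in all 5 Iglv3 barcodes. Iglc1 was thus the most frequent leading constant gene with Iglv1, and Iglc2 with the upstream V genes Iglv2 and Iglv3.

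The share of B barcodes that were members hardly varied among mice. It was 37.8, 42.4 and 42.9% in LDHA-sufficient mice 1, 2 and 3, and 41.5, 39.2 and 43.3% in LDHA-deficient mice 1, 2 and 3. The groups overlapped, with means of 41.0% ± 2.78 and 41.3% ± 2.04 (SD, n = 3 mice each), a difference of 0.307 percentage points (exact permutation test, two-sided, p = 0.8; 3 mice against 3 cannot go below 0.1). Lambda V barcodes, as a share of those with a V class, were 9.27, 9.09 and 8.85% in LDHA-sufficient mice and 7.80, 6.87 and 3.87% in LDHA-deficient mice. These groups did not overlap, at 9.07% ± 0.207 and 6.18% ± 2.06 (SD, n = 3 mice each; exact permutation test, two-sided, p = 0.1, the smallest p possible). The LDHA-deficient values rest on 16, 20 and 7 lambda V barcodes, and the exact binomial intervals of single mice overlap between the genotypes.

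**Figure D2:**
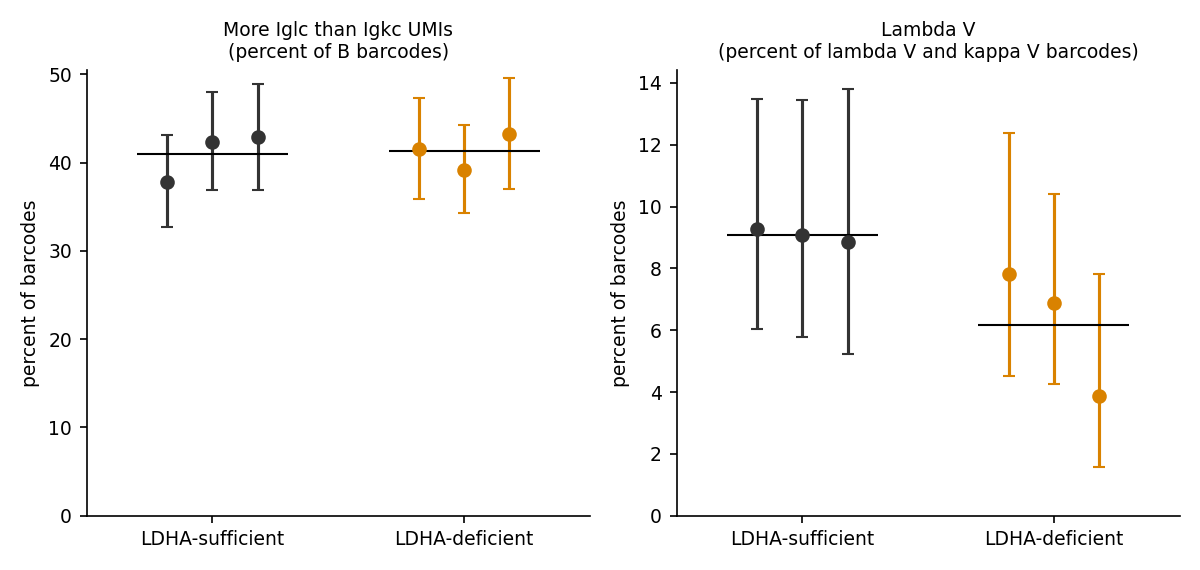
Share of barcodes by mouse; left, members as a percent of all B barcodes; right, lambda V barcodes as a percent of lambda V and kappa V barcodes; points are mice with exact 95% binomial intervals for counting error, and lines are genotype means. The left panel lies between 37.8 and 43.3% in all 6 mice, and the right panel between 8.85 and 9.27% in LDHA-sufficient and between 3.87 and 7.80% in LDHA-deficient mice.

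Members and others were spread over the same B cell states. Barcodes were clustered without immunoglobulin and T cell receptor segments, Ldha, and sex-linked, mitochondrially encoded and ribosomal protein genes. A cluster took the name of the marker list with the largest share of its genes raised there. The name was withdrawn where another list had as many or more markers among the leading genes. A named cluster is therefore not always led by its own markers. Members made up 111 of 222 marginal zone B-like barcodes (50%), 206 of 394 barcodes of unnamed cluster 0 (52.3%), 127 of 345 follicular B-like barcodes (36.8%), 63 of 177 germinal centre B-like barcodes (35.6%) and 99 of 328 barcodes of unnamed cluster 3 (30.2%). Unnamed cluster 0 was led by genes such as Tmem108, Tmsb10 and Fau, and unnamed cluster 3, of low depth at a median of 2894.5 UMIs, by Zfp865 and Peg13.

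Unnamed cluster 0 held 18.9, 22.8 and 30.8% of members in LDHA-sufficient mice and 30.4, 33.1 and 22.9% in LDHA-deficient mice. It held 14.3, 13.0 and 17.9%, then 15.3, 23.8 and 14.7%, of the others. The members' share was higher in all 6 mice, by 9.98 percentage points ± 3.63 (SD, n = 6 mice), which is the smallest exact sign-permutation p that 6 mice allow (two-sided, p = 0.031; adjusted over the 10 classes, p = 0.268). Marginal zone B-like barcodes, cells that patrol the blood-exposed rim of the white pulp, were 14.1% of members and 10.1% of others, a difference of 4.0 points that was positive in 5 of 6 mice (exact p = 0.125, adjusted p = 0.268). Germinal centre B-like barcodes were 7.90% of members and 9.82% of others, lower in 4 of 6 mice (exact p = 0.281, adjusted p = 0.352). No class passed after adjustment, and with 10 classes a single class at the smallest possible p could not pass.

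By the V gene sort the states fell out otherwise. Lambda V barcodes were 5 of 345 in the follicular B-like class (1.45%), from 3 mice, and 22 of 177 in the germinal centre B-like class (12.4%). The mean share that was follicular B-like was 4.88% of lambda V and 18.3% of kappa V barcodes, lower in all 6 mice (exact p = 0.031, adjusted p = 0.104). The marginal zone B-like share was 18.6 against 11.1%, higher in all 6 mice with the same exact and adjusted p. The germinal centre B-like share was 19.1 against 8.88%, higher in 5 of 6 mice (exact p = 0.125, adjusted p = 0.25), and in LDHA-sufficient mouse 2 it was 11 of 22 lambda V barcodes. Among kappa V barcodes alone, members were germinal centre B-like less often than the others, 5.00 against 10.96%, in all 6 mice (exact p = 0.031, adjusted p = 0.104). Members minus others was thus negative for the germinal centre share over all barcodes and among kappa V barcodes, and lambda V minus kappa V was positive; none passed after adjustment over the 10 classes.

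**Figure D3:**
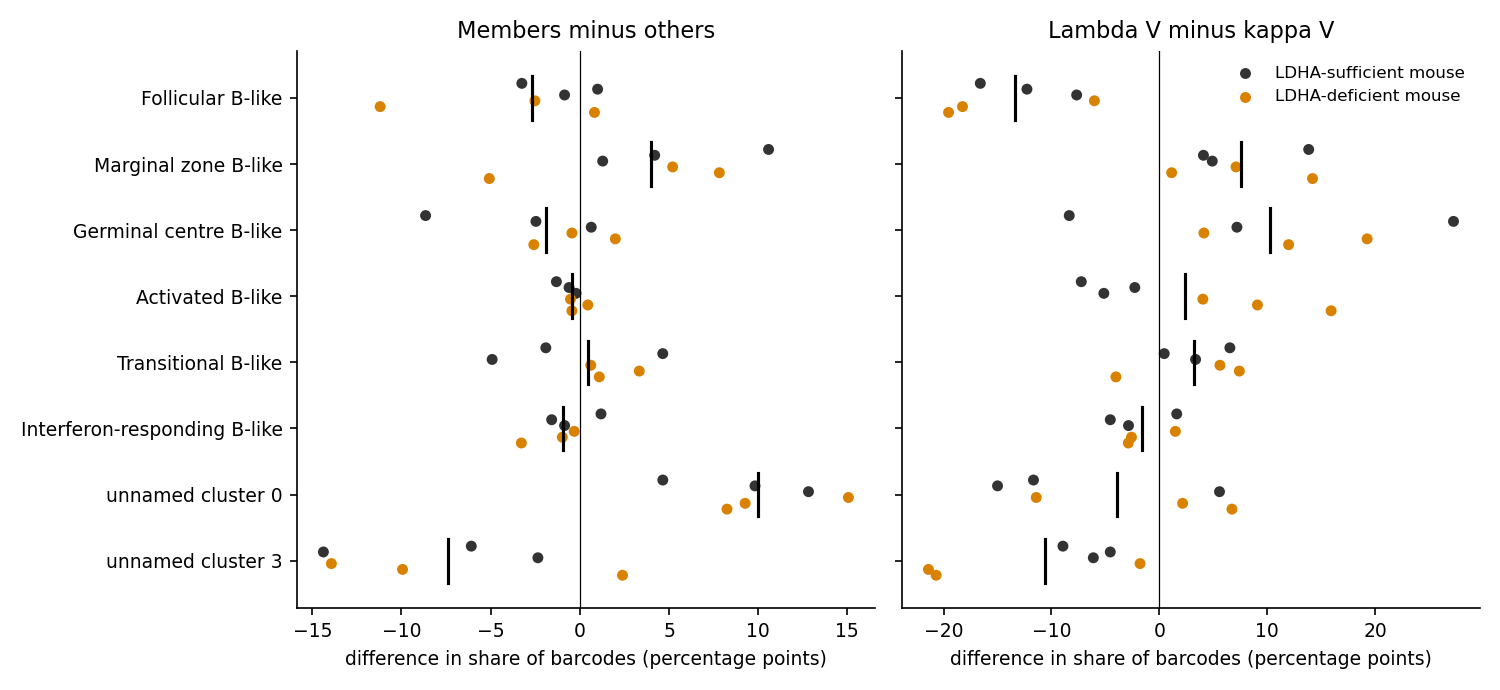
Difference in the share of barcodes in each cell class, in percentage points, by mouse; left, members minus others; right, lambda V minus kappa V barcodes; points are mice coloured by genotype and bars are means of 6 mice. On the left unnamed cluster 0 is above 0 in all 6 mice, and on the right the follicular B-like class is below 0 and the marginal zone B-like class above 0 in all 6.

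Members differed from others in many genes, led in number by ribosomal protein genes. UMIs were summed by mouse and set and compared with edgeR's quasi-likelihood test with the mouse as a block. Of 7971 genes tested, 362 (4.54%) passed an adjusted p of 0.05, 284 (3.56%) higher and 78 (0.979%) lower in members; 11 of them were immunoglobulin genes, with Iglc2, Iglc3 and Igkc of the rule among them. Of the 362, 289 had the same sign in all 6 mice. Depth moved with the sets, at a median of 4511 UMIs in members and 3739.5 in others, and with 773 others matched to the members in total UMIs within each mouse (median 4324), 280 genes passed, of which 250 were shared with the same sign. Without the mouse block 150 genes passed, 147 of them shared, and without LDHA-sufficient mouse 2 there were 210, of which 201 were shared. The mitochondrial share of UMIs was lower in members of all 6 mice, 2.36 against 2.58% (exact p = 0.031, adjusted over 4 measures p = 0.0625), and its part in the result was not tested.

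Ribosomal protein genes, which encode the protein parts of the ribosome, were higher in members almost throughout. The list was taken after values were seen, by names starting with Rpl or Rps and a number, so it includes genes such as Rps19bp1. Of 79 tested, 76 rose, against 3.56% of all genes, with a median log2 fold change of 0.46 beside -0.02 over all genes. Rps12 had the highest value at 0.62 (SE 0.0542, adjusted p = 1.23e-10) and Rpl32 followed at 0.60. Rpl7l1, Rps27rt and Rps19bp1, at -0.03, 0.10 and 0.33, were not called. Ribosomal protein genes have many near-identical pseudogene copies, so single values are uncertain. Matched on depth, 75 of the 79 passed, as did 75 among kappa V barcodes alone. Between lambda V and kappa V barcodes 6 passed, at a median of 0.21.

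Marginal zone genes were the next group with several members higher. Of 9 tested from a list of 10, 3 rose, at a median log2 fold change of 0.54. Cd1d1, which presents lipid antigens to NKT cells, stood at 48.6, 37.5 and 48.9 CPM (UMIs per 1000000 of the library) in members of LDHA-sufficient mice and 44.8, 47.0 and 61.8 in LDHA-deficient mice, and at 26.8, 17.6 and 27.5, then 39.6, 30.8 and 28.2, in the others. Members were higher in every mouse, and across mice the sets overlapped in that members of LDHA-sufficient mouse 2 lay below the others of LDHA-deficient mouse 1 (log2 fold change 0.77, SE 0.166, adjusted p = 0.00200). Fcrl5, an inhibitory Fc receptor-like protein of marginal zone and B-1 cells, rose by 0.58 (SE 0.110, adjusted p = 0.000378), and Myof, a membrane repair protein in the list, by 0.76 (adjusted p = 0.0301), each in all 6 mice. Cr2, the complement receptor CD21, stood at 0.06 (adjusted p = 0.807).

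Ly6c2 and Plac8 were among the highest of the other genes. Ly6c2, a surface glycoprotein gene, stood at 84.7, 29.1 and 159.1 CPM in members of LDHA-sufficient mice and 129.6, 138.9 and 27.9 in LDHA-deficient mice, against 30.6, 15.9 and 62.1, then 70.3, 73.5 and 16.9, in the others. It was higher in members of each mouse (log2 fold change 1.09, SE 0.135, adjusted p = 1.05e-07), while the mice themselves varied more than the sets. Outside the germinal centre, plasma and non-B clusters its value was 0.29 and did not pass (adjusted p = 0.613). Left out there were the germinal centre B-like class, the myeloid-like class and unnamed cluster 10. Plac8 rose by 1.03 (adjusted p = 0.0267), Tmsb15b1 by 1.08, Nenf by 0.89, and Bhlhe41, a transcription factor of B-1 cells, by 0.94 (adjusted p = 0.00200). Zc3h12c, Ppfibp2 and Adk completed the highest 10, between 0.77 and 0.80. Plac8 (0.97, adjusted p = 0.0107) and Cd1d1 (0.66, adjusted p = 0.00683) still passed outside those clusters, while Bhlhe41 (0.68, adjusted p = 0.0769) and Zc3h12c (0.54, adjusted p = 0.253) did not.

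Genes lower in members were led by Sdc3 and Fcer1g. Sdc3 fell by 1.52 on the log2 scale (37 UMIs in members, 136 in others) and Fcer1g, the common gamma chain of Fc receptors, by 1.24. Fcer1g stood at 21.7, 39.6 and 47.4 CPM in members of LDHA-sufficient mice and 35.2, 24.6 and 1.99 in LDHA-deficient mice, against 77.7, 66.2 and 99.7, then 71.5, 71.5 and 8.45, in the others. Members were lower in each mouse (adjusted p = 3.47e-07). All 8 genes of the myeloid list had UMIs in both sets, and their summed level ran from 268.3 to 573.6 CPM in members and from 290.4 to 1083 in others. Of the 5 tested, Fcer1g fell and Bst2 rose by 0.54. Outside the germinal centre, plasma and non-B clusters the summed level was at least 235.6 CPM in members and 260.1 to 285.9 in others of every mouse, and neither Fcer1g nor Sdc3 had enough counts to be tested.

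Genes of cell division were also among the lowest. E2f8 fell by 1.15, Kif18a by 1.08 and Neil3 by 1.06, genes of cell cycle transcription, chromosome alignment and DNA repair, and the histone genes Hist1h2bh, Hist1h2ac and Hist1h2ak fell by 1.02, 0.86 and 0.85. Alg10b fell by 0.88. Of 12 S phase genes, Rrm1 and Mcm4 fell (0.61 and 0.36 on the log2 scale; list median -0.32), and none of 12 G2 and M phase genes passed (list median -0.58), against 0.979% of all genes called lower. Outside the germinal centre, plasma and non-B clusters Mcm4 stood at 0.11, and the medians were -0.0014 over the 10 S phase genes and 0.069 over the 4 G2 and M phase genes tested there, of which Mki67, a marker of dividing cells, fell by 0.42 (adjusted p = 0.0441). Of 11 germinal centre genes, Gcsam fell by 0.71 (adjusted p = 0.0234), and the list median was -0.39. Bcl6, the transcription factor that defines germinal centre B cells, stood at -0.39 (adjusted p = 0.083), and at -0.48 outside those clusters, where it passed (adjusted p = 0.0434). The germinal centre list summed to between 143.9 and 855.4 CPM in members and between 178.6 and 1355 CPM in others, with the highest values in LDHA-sufficient mice 1 and 2 of both sets.

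The remaining lists had few members past the threshold. Blk, a kinase of antigen receptor signalling, was the only one of 19 tested to pass, at 0.32, and Tnfrsf13b, the TACI receptor for survival ligands, the only one of 7, at 0.34. Isg15 rose by 0.56 among 7 interferon-responding genes, and Bhlhe41 was 1 of 2 B-1 genes tested. None passed of 7 editing and surrogate light chain genes, 5 heavy chain constant genes, 12 homing, 9 activated B, 6 follicular, 5 plasma cell, 4 transitional and 4 memory genes. Outside the germinal centre, plasma and non-B clusters, where 458 of 6833 genes passed (6.7%), 365 higher (5.34%) and 93 lower (1.36%), some of these lists gave calls. There 4 of 6 follicular genes fell, among them Ighd by 0.29 (adjusted p = 0.000516) and Icosl by 0.43 (adjusted p = 0.00847). Jchain, of the plasma cell list, fell by 0.52 (adjusted p = 2.22e-05), and Ighg2b, a heavy chain constant gene, rose by 1.55 (adjusted p = 3.09e-08). Of 9 marginal zone genes 6 rose there. Over all barcodes, Vpreb3, of the editing and surrogate light chain list, was higher in members of all 6 mice without passing (0.26, adjusted p = 0.0800). Between lambda V and kappa V barcodes Vpreb3 rose by 0.62 and passed (adjusted p = 0.0382), higher in all 6 mice. Rag1, the recombinase that rearranges light chains, had 6 UMIs in members and 2 in others over all barcodes and was not tested. No gene of the T and NK and red cell lists passed the filter on low counts. The red cell genes still held 1381 UMIs in members and 4751 in others. They were highest in members of LDHA-sufficient mouse 1 (1292 CPM) and in the others of LDHA-sufficient mouse 3 (6088 CPM).

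Antibody transcripts were spread unevenly over the mice. Igha, the IgA constant gene, stood at 68.7 to 172.8 CPM in members and at 4546, 226.3 and 8054, then 1611, 238.3 and 321.2 CPM, in the others, with the high values in 3 mice (adjusted p = 0.221). Jchain, the joining chain of secreted IgM and IgA, held 3105 UMIs in members and 12034 in others without passing (adjusted p = 0.363). All 7 plasma cell genes had UMIs in both sets, and they summed to between 340.2 and 1760 CPM in members and between 429.9 and 5592 CPM in others; their part in other results was not tested. Among heavy chain V genes Ighv1-42 was the farthest apart, at 33 against 1129 UMIs, lower in members of all 6 mice (log2 fold change -4.65, SE 0.212, adjusted p = 9.80e-12), and Ighv1-76 followed at -1.56. Iglv1 was higher in members of all 6 mice (2.46, adjusted p = 0.0433), which is given as a description, since a lambda transcript carries both the V gene and the counted constant gene.

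**Figure D4:**
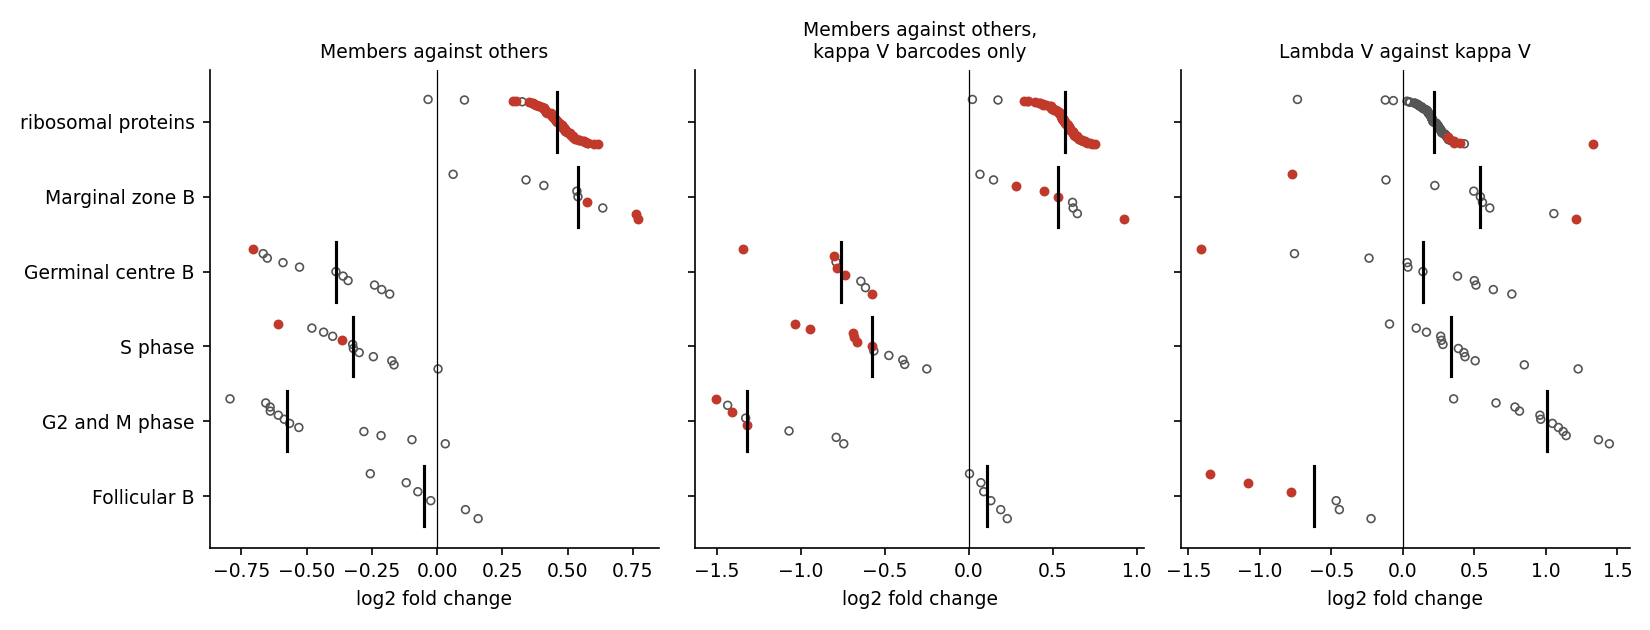
Log2 fold changes of the genes in 6 lists, filled where the adjusted p was under 0.05; left, members against others; middle, the same among kappa V barcodes; right, lambda V against kappa V barcodes; bars are list medians and the horizontal scales differ. In the left panel 78 of 79 ribosomal protein genes lie above 0, at a median of 0.46 beside 0.57 in the middle, and the G2 and M phase genes lie below 0 at a median of -1.32 in the middle and above 0 at 1.01 on the right.

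Restricting both sets to kappa V barcodes kept 264 of the 362 calls over all barcodes with the same sign, but not most of the genes with the largest changes. Of 6567 genes, 457 passed (6.96%), 290 higher (4.42%) and 167 lower (2.54%) in members. Of the 10 highest genes, Plac8, Bhlhe41, Nenf and Cd1d1 still passed. Ly6c2, Adk and Myof did not (adjusted p = 0.308, 0.183 and 0.204), and Tmsb15b1, Zc3h12c and Ppfibp2 were not tested. Among the lowest genes named above, Neil3 and Hist1h2ac passed, and Alg10b and Hist1h2ak did not. Sdc3, Fcer1g, E2f8, Kif18a and Hist1h2bh had too few counts to be tested. Germinal centre genes were now lower in 5 of 8 tested: among them Mybl1 fell by 1.34, Rgs13 by 0.78, Neil1 by 0.74 and Bcl6 by 0.58. Rrm1, the large subunit of ribonucleotide reductase, and 5 more of 11 S phase genes fell, as did Mki67, Tpx2 and Birc5 of 8 G2 and M phase genes, Mki67 by 1.51. Cr2, Cd1d1, Fcrl5 and Dtx1 of 9 marginal zone genes rose, by 0.28, 0.92, 0.53 and 0.44. Of 4 plasma cell genes tested, at a list median of -1.08, Edem1 fell by 0.69 (adjusted p = 0.000350). Jchain held 645 UMIs in members and 11707 in others without passing (adjusted p = 0.0765). The part of plasma cells in the other values among kappa V barcodes was not tested.

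Lambda V against kappa V barcodes gave a different set of genes. Of 6793 genes 168 passed (2.47%), 82 higher (1.21%) and 86 lower (1.27%) in lambda V barcodes, of which 32 were immunoglobulin genes and 36 were shared with the same sign with the members' calls. Mean UMIs per barcode were 9461 in lambda V and 5897 in kappa V barcodes, higher in all 6 mice, and the part of this in the result was not tested. Follicular genes were lower in 3 of 6 tested: Ighd by 1.35, Icosl by 1.08 and Fcer2a, the CD23 receptor for IgE, by 0.78 on the log2 scale. Cr2 stood at 351.6, 235.8 and 476.0 CPM in lambda V barcodes of LDHA-sufficient mice and 427.7, 353.7 and 420.3 in LDHA-deficient mice, against 412.8, 509.0 and 534.4, then 844.7, 777.6 and 894.7, in kappa V barcodes. It was lower in each of the 6 mice (fell by 0.78, adjusted p = 0.00609). Mzb1, a chaperone of antibody assembly in marginal zone B cells and plasma cells, rose by 1.21 (adjusted p = 0.0475).

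Agpat4, Ass1 and Srm were among the highest genes in lambda V barcodes. Agpat4, a lipid synthesis enzyme, rose by 1.74, Ass1, the argininosuccinate synthase, by 1.65, and Srm, the spermidine synthase, by 1.45. Srm stood at 115.7, 107.5 and 75.2 CPM in lambda V barcodes of LDHA-sufficient mice and 114.1, 170.0 and 147.1 in LDHA-deficient mice, and at no more than 60.9 CPM in kappa V barcodes of any mouse, so the 2 sets did not overlap (adjusted p = 0.00129). Myl4, Siva1, Cenpw, Ppih, Ssr2 and 1110038B12Rik completed the highest 10 at 1.05 to 1.41. The lowest were Gm19951 at -2.03, Gbp5 at -1.87, Egr3, an early gene of antigen receptor activation, at -1.65, Cnn3 at -1.59, Arhgef3 at -1.57, Zfp608 at -1.54, Gm30211 at -1.43, Plcl2 at -1.38, and B3gnt5 and Ifi47 at -1.30. G2 and M phase genes had a median of 1.01 and none of 12 passed, and 0 of 12 S phase genes passed at a median of 0.33. E2f8, Neil3, Rrm1 and Mcm4, all called lower in members, stood at 0.11, 0.21, 0.51 and 0.094 in lambda V against kappa V barcodes, and Ly6c2 at -0.41. Single values rest on few molecules, such as 19 Egr3 UMIs in all lambda V barcodes.

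A heavy chain sequence was found for 467 members and 720 others. In members 349 were IgM, 96 IgD, 9 IgG2b, 7 IgA, 4 IgG3 and 2 IgG2c. Class-switched constant genes made up 6.41, 8.14 and 7.59% of members' heavy chains in LDHA-sufficient mice and 1.43, 3.03 and 0% in LDHA-deficient mice, where 0 of 55 allows a share of up to 5.45%, and 13.9, 11.7 and 3.67%, then 5.66, 3.95 and 4.49%, in the others. The 2 sets overlapped, with means over mice of 4.43 and 7.22% (lower in 5 of 6 mice, exact p = 0.125, adjusted over 16 measures p = 0.5). Without the barcodes of 2 junctions found in 3 or more mice the means were 3.83 and 4.48%. Mean V identity to the germline was 99.8% in both sets, and 31 members (6.64%) and 63 others (8.75%) were below 99%. IGHJ1 was used by 23.5% of members and 14.2% of others, higher in 4 of 6 mice (exact p = 0.125, adjusted p = 0.5), and none of the 16 heavy chain measures passed.

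Heavy chain V gene use was spread thinly. Members used IGHV1-26 most, in 26 barcodes (5.57%), followed by IGHV1-72 in 23 (4.93%), IGHV3-6 in 20 (4.28%), IGHV10-1 in 18 (3.85%) and IGHV1-64 in 17 (3.64%). In the others the same genes, in this order, were used by 5.97, 3.75, 5.14, 1.67 and 4.44%. IGHV1-72 is the V gene known for pairing with lambda light chains in responses to the hapten NP. It was used by 8 of 84 lambda V barcodes with a heavy chain (9.52%) from 5 mice, and by 34 of 912 kappa V barcodes (3.73%). IGHV9-3 was used by 7 lambda V barcodes, and IGHV10-1 and IGHV14-3 by 6 each. Among the 912 kappa V barcodes these genes, in this order, were used by 28, 16 and 14. These are counts of barcodes, and in both V classes some barcodes shared the authors' clone number within a mouse. For IGHV9-3 these included 2 lambda V barcodes in LDHA-sufficient mouse 1 and 2 in LDHA-deficient mouse 1. For IGHV14-3 they included 2 lambda V barcodes in LDHA-sufficient mouse 2. No lambda V barcode used the IGHV3 family, which allows a share of up to 3.57% for counting error alone, and kappa V barcodes used it at 6.57% (lower in all 6 mice, exact p = 0.031, adjusted p = 0.25).

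Clones, barcodes of 1 mouse that share the authors' clone number, are described by both sorts. Of 21 clones with 52 barcodes, 4 held members alone, 8 held none and 9 held both. Among the 15 clones with at least 2 barcodes of a V class, 3 were wholly lambda V and 12 wholly kappa V, where 1264 of all B barcodes were kappa V and 106 lambda V.

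The wholly lambda V clones used 2 pairs of heavy chain V and J genes, each under 1 clone number that recurred across mice. Their junctions are shown because the same clone number brought together barcodes of different mice, with capitals at bases that differ from the first line of each clone.
IGHV14-3 with IGHJ1, LDHA-sufficient mouse 3: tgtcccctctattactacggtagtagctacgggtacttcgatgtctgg
IGHV14-3 with IGHJ1, LDHA-sufficient mouse 2: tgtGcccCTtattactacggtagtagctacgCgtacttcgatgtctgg
IGHV14-3 with IGHJ1, LDHA-sufficient mouse 2: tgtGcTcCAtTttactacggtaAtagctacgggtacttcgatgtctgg
IGHV9-3 with IGHJ1, LDHA-sufficient mouse 1 and LDHA-deficient mouse 3: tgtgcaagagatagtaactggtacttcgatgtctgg
IGHV9-3 with IGHJ1, LDHA-sufficient mouse 1: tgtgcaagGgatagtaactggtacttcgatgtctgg
IGHV9-3 with IGHJ1, LDHA-deficient mouse 1: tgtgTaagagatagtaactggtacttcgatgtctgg
IGHV9-3 with IGHJ1, LDHA-deficient mouse 1: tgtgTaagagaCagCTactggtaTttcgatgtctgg
All 3 IGHV14-3 barcodes were germinal centre B-like, lambda V and members, with junctions of 48 bases that all differed from one another. The IGHV9-3 junctions had 36 bases, and their 5 barcodes were all members, 4 of them lambda V. The barcode from LDHA-deficient mouse 3 was kappa V, with 19 Igkv UMIs, although its junction was the same as one in LDHA-sufficient mouse 1. For the counts above, clones were taken within mice only.

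Ldha, the targeted gene, was lower in members of LDHA-deficient mice. It stood at 223.1, 208.5 and 191.2 CPM in members of LDHA-sufficient mice and 65.1, 46.6 and 65.0 in LDHA-deficient mice. The genotypes did not overlap, and Ldha fell by 1.84 on the log2 scale (SE 0.165, edgeR quasi-likelihood adjusted p = 1.11e-07). In the others it stood at 232.3, 272.6 and 147.2 against 56.9, 63.9 and 90.6 CPM. Ldha did not differ detectably between members and others (log2 fold change -0.13, adjusted p = 0.620).

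**Figure D5:**
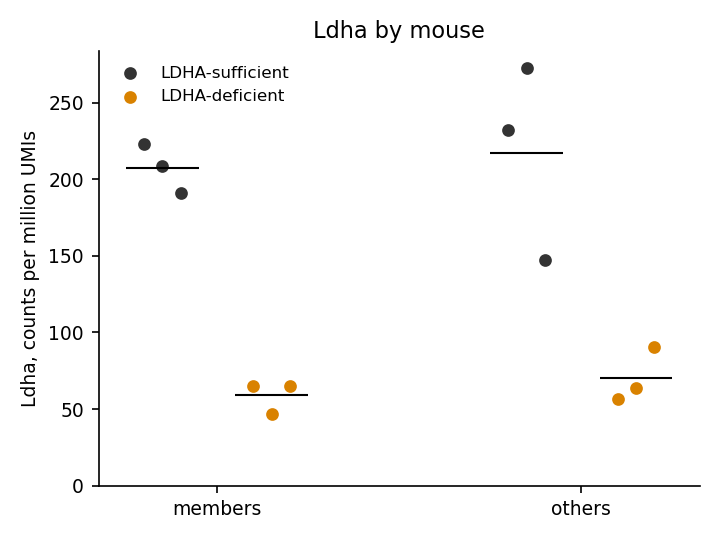
Ldha in CPM by mouse in members and others; points are mice and lines are means of 3 mice. Members of LDHA-deficient mice lie between 46.6 and 65.1 and those of LDHA-sufficient mice between 191.2 and 223.1.

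Few other genes differed by genotype within members. Of 7715 genes tested 11 passed (0.143%), all lower in LDHA-deficient mice, with Pdzd2 at a log2 fold change of -1.83, Ncapg, a condensin subunit, at -1.62, Dstn, an actin filament severing protein, at -1.57 and Pafah1b3 at -0.93. The others called were Stmn1, Kif11, H1f0, Top2a and Birc5, the last pair from the 12 G2 and M phase genes, and Slbp, 1 of 12 S phase genes, and the germinal centre list had a median of -1.63 with none of 11 passing. The share of members that were germinal centre B-like moved with genotype, at 14.4, 21.3 and 5.13% in LDHA-sufficient mice and 2.40, 3.25 and 0.917% in LDHA-deficient mice, and its part in these genes was not tested. The count of genes was set by single mice: leaving out LDHA-sufficient mouse 3 gave 173, and leaving out LDHA-deficient mouse 3 gave 1.

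The difference between members and others was itself compared between the genotypes. Of 8665 genes 2 passed (0.0231%), Ccl5, a chemokine gene, and Igkv12-38, a kappa V gene. Igkv12-38 is given as a description, since a kappa transcript carries both the V gene and Igkc, which the rule counted. Ccl5 stood at 113.6, 48.2 and 4.29 CPM in the others of LDHA-sufficient mice and at no more than 17.5 CPM in any set of LDHA-deficient mice, and Igkv12-38 at 71.3, 32.4 and 2.86 CPM in the same others. In both genes 2 of 3 LDHA-sufficient mice carried the high values, and without LDHA-sufficient mouse 1 neither was called. Ighv2-9-1, Hspa5, a chaperone of the endoplasmic reticulum, and Knl1, a kinetochore protein, came next without passing (adjusted p = 0.0570, 0.351 and 0.381). DESeq2 called no gene, with 44 at an unadjusted p under 0.05 against 399 in edgeR.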

How the data were processed

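The deposited gene file holds UMI counts of 32285 genes in 2836 barcodes from 1 capture (18170115 UMIs; whole numbers, not normalized), and the hashtag file counts of 6 oligonucleotides. Reads were processed with Cell Ranger 6.0.0 and Seurat 4.2.1 on mm10, per the submitters' processing notes; per the file headers, the gene matrix was written by cellranger 6.0.2. The deposited heavy chain table of 2241 contigs in 2014 barcodes (1730 of them in the gene file) gives V and J genes, V identity as a fraction, junctions and the authors' clone numbers; no source used here gives its tools.

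Hashtags assigned barcodes to mice, and the mouse is the replicate (n = 3 per genotype). The members, gene lists and tests were chosen with earlier results of these data known; the V gene sort, the ribosomal list and the alternatives on them, on shared heavy chains and on matched depth were chosen after seeing the data. The single-hashtag rule removes doublets between mice; no doublet caller was run, and the 68 barcodes of the myeloid-like cluster were kept. A cell filter (at least 500 genes and 1000 UMIs, at most 10% mitochondrial) was an alternative. Barcodes were clustered with scanpy 1.11.5 (2000 variable genes, 30 components, 20 neighbours, Leiden resolution 0.8). Receptor segments, Ldha, and sex-linked, mitochondrially encoded and ribosomal protein genes were left out of the variable genes. Shares were compared within mice by exact sign permutation and between genotypes by exact permutation, two-sided. The barcodes of 2 junctions found in 3 or more mice (3 members, 20 others) were left out of the clone counts and of the 912 kappa V barcodes. As an alternative, they were left out of the other results.

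UMI counts summed per mouse and set were tested with edgeR 4.0.16 (TMM, filterByExpr, robust quasi-likelihood, Benjamini-Hochberg adjusted p under 0.05; mouse as a block between members and others, which come from the same animals), in R 4.3.3; all genes were adjusted together. DESeq2 1.42.0, no filter on low counts and leaving out each mouse were among the alternatives. The fit was tested on simulated data. Named genes are the 10 highest and 10 lowest calls with 1 sign in every mouse, up to 3 per list by p, Ldha and a few preset genes, and the 5 smallest p by genotype; others named were chosen after their values were seen. A few genes that this rule picks are not reported here. Intervals and upper limits from a count of 0 (3 counts) cover counting error only.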

Additional observations from a re-analysis of the deposited data

Results flagged for a closer look

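Over 30 measures tested for a mouse far from the others, of which chance would flag about 1 in 20, 2 mice stood apart. The share of follicular B-like barcodes in members minus that in others was -11.19 percentage points in LDHA-deficient mouse 2, and its gap to the nearest mouse was 0.652 of the whole range over the 6 mice. The share of IGHV5 heavy chains was 10.05 percentage points higher in members than in others of LDHA-deficient mouse 3, with a gap of 0.666 of the range.

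The difference between members and others differed between the genotypes, by the interaction term in edgeR, in 2 genes. The log2 fold change of members over others was higher in LDHA-deficient than in LDHA-sufficient mice by 5.58 for Ccl5 (adjusted p = 0.000786) and by 7.80 for Igkv12-38 (adjusted p = 0.000860). Members lay below the others in LDHA-sufficient mice, with Ccl5 at 3.07 against 113.6 CPM in mouse 1 and at 1.03 against 48.2 CPM in mouse 2. Counts of Ccl5 were 20 UMIs in members and 252 in others, and of Igkv12-38 11 and 156. The values of Igkv12-38 are a description, since its transcripts also carry Igkc, which the rule counted. No explanation was tested for these values.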

How the results depend on the processing

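The replicate number is the mouse, so the block pairs the members and others of the same animal; without it 150 genes passed in place of 362, and the genotype comparisons have no pairs. DESeq2 gave 183 and a 3-fold excess of either locus 111, and leaving out each mouse gave 210 to 381. Sorting by V gene gave 168. Genes called by genotype within members, 11 in the report, numbered 7 with DESeq2, 108 with no filter on low counts, 1 with the 3-fold excess, 6 with the cell filter, 49 with a hashtag ratio of 10, 1 by V gene, 88 among kappa V barcodes, and 1 to 173 when each mouse was left out. For the difference of the contrast between genotypes, 2 in the report, the numbers were 0 with DESeq2, 29 with no filter, 1 with the 3-fold excess, 4 with a hashtag ratio of 10, 1 without equal counts, 4 by V gene, and 2 to 10 when each mouse was left out.

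The genotype difference in the share of members, 0.307 points in the report, was -4.89 with the 3-fold excess and -2.89 by V gene. With the 3-fold excess, members minus others was -5.27 points for activated, 3.34 for germinal centre, 17.1 for unnamed cluster 0, -2.20 for unnamed cluster 10 and -16.4 for unnamed cluster 3; for heavy chains it was 0.138 for V identity, -13.0 for V identity under 99%, -1.42 bases for junction length, -16.6 for switched, -14.6 for clones and -17.9 for IGHV1. By V gene it was 2.40 for activated, -13.4 for follicular, 10.2 for germinal centre, 3.46 for myeloid-like, -3.93 for unnamed cluster 0 and 2.64 for unnamed cluster 10, with heavy chain values of -0.182 for V identity, 2.93 for clones, 7.25 for IGHV14, -6.57 for IGHV3, -3.68 for IGHV8 and 4.93 for IGHV9. Among kappa V barcodes it was 0.253 for activated, -5.96 for germinal centre and 16.7 for unnamed cluster 0. The activated share was -1.72 with a hashtag ratio of 10, 9.24 at resolution 0.4 and -2.14 at resolution 1.2, and the follicular share -13.4 at resolution 0.4. None of these shares or measures passed after adjustment.

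Among the genes reported here and called in either fit, log2 fold changes that turned by V gene were Iglc3 at -0.63, Ly6c2 at -0.41, E2f8 at 0.11, Neil3 at 0.21, Isg15 at -0.11, Bst2 at -0.11, Rrm1 at 0.51, Mcm4 at 0.094, Cr2 at -0.78 and Cenpw at 1.31. Genes called in neither fit also changed sign, such as Mki67 from -0.66 to 0.82 and Birc5 from -0.64 to 1.09. Iglv1 was -0.67 among kappa V barcodes, and Mcm4 0.11 outside the germinal centre, plasma and non-B clusters. The cause was not tested for any of these changes. The lambda V results rest on 106 barcodes.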

Other observations

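Unnamed cluster 10, 30 barcodes with plasma cell genes such as Jchain, Prdm1 and Sdc1 and a median of 15420 UMIs, held 14 members, 6 lambda V and 19 kappa V barcodes. At resolution 0.4 a cluster of 30 barcodes with these plasma cell genes also had Siglech, Tyrobp and Bst2 of the myeloid list. Its leading genes included Siglech, Klk1, Jchain and Ly6c2, and its overlap with unnamed cluster 10 was not tested. Haemoglobin transcripts of the red cell list were uneven: they summed to 6088 CPM in the others of LDHA-sufficient mouse 3 and 1292 CPM in members of LDHA-sufficient mouse 1, and to no more than 248.1 CPM in the other mice and sets. Outside the germinal centre, plasma and non-B clusters these transcripts remained, at 8468 CPM in the same others and 2080 CPM in the same members. Their part in the results there was not tested.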
